A study of Mus musculus with 8 samples.

Results

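The 10 genes described here encode the proteins that hold a cell out of the division cycle and the D-type cyclin they act against. They are the CDK inhibitors *Cdkn1a*, *Cdkn1b*, *Cdkn2a*, *Cdkn2b*, *Cdkn2c* and *Cdkn2d*, the retinoblastoma family *Rb1*, *Rbl1* and *Rbl2*, and *Ccnd1*. They were taken by name, not by a threshold on measured values, as the genes with these symbols in the NCBIM37 annotation, and make up 10 of the 36536 genes with counts. RNA-seq was performed on cells sorted, without culture or treatment, from P1 and P6 cochleas of the mouse line B6;FVB-Tg(Lfng-EGFP)HM340Gsat/Mmucd, in which a BAC transgene places EGFP under the *Lfng* promoter. All 8 libraries carry the transgene. GFP+ cells are the brightest sorted cells, and the transgene is active in border, inner phalangeal, outer pillar and Deiters' cells but not in inner pillar cells, so the GFP+ fraction samples most, not all, supporting cells. GFP- cells are the rest of the dissociated tissue, and the cells of low GFP fluorescence in between were not collected. That tissue was not the same at both ages. By the paper's methods, the sensory part of the duct was parted from the outer tissues at P1. At P6 some of those outer tissues stayed on. Comparisons between the ages therefore also compare different dissections, above all in GFP- cells. Each of the 4 groups (P1 GFP+, P1 GFP-, P6 GFP+ and P6 GFP-) had 2 replicate libraries made from cells pooled over many cochleas. Nothing in the labels says that the replicates came from separate litters or sorts, so p-values measure the spread between these libraries, which may be technical.

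A cell commits to division when D-type cyclins with CDK4 or CDK6, followed by cyclin E with CDK2, phosphorylate the retinoblastoma proteins and release E2F factors, which switch on the genes for DNA synthesis. The Cip/Kip inhibitors p21 (*Cdkn1a*), p27 (*Cdkn1b*) and p57 (*Cdkn1c*) bind cyclin-CDK complexes of several kinds, while the INK4 inhibitors p16 (*Cdkn2a*), p15 (*Cdkn2b*), p18 (*Cdkn2c*) and p19 (*Cdkn2d*) bind CDK4 and CDK6 alone. In the organ of Corti, p27 is the classical mark of the postmitotic sensory precursor, stays on in supporting cells after birth, and its loss in mice lets supporting cells divide. *Cdkn2d*, *Cdkn1a* and *Rb1* are known for keeping hair cells out of the cycle.

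The upstream sequences of *Cdkn1b*, *Cdkn1a* and *Rbl1* are shown because *Cdkn1b* and *Cdkn1a* separated the fractions and the ages in the counts below, and because *Rbl1*, which differed in 2 of the comparisons, carries the letters of an E2F site. They are the 250 bases before an annotated start in RefSeq (GRCm38.p6, a later build than that of the counts), written on the strand of the gene, and 8 of the 10 genes had such a window. Capitals mark, on either strand, the E2F site TTTCGCGC, paired cores of the p53 site CATGNNNNNNCATG, the GC box GGGCGG and the CCAAT box, none of which overlapped another.
*Cdkn1b*, chr6:134920151-134920400, plus strand: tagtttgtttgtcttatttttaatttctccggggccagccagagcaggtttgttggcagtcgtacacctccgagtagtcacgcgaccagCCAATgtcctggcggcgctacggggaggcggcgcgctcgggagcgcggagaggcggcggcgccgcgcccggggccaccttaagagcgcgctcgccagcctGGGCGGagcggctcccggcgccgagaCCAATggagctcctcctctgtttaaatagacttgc
*Cdkn1a*, distal start, chr17:29090729-29090978, plus strand: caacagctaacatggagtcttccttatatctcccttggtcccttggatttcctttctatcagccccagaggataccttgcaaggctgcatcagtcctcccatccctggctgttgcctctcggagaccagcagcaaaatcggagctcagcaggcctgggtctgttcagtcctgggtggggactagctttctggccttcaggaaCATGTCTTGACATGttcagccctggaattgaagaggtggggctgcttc
*Cdkn1a*, proximal start, chr17:29093519-29093768, plus strand: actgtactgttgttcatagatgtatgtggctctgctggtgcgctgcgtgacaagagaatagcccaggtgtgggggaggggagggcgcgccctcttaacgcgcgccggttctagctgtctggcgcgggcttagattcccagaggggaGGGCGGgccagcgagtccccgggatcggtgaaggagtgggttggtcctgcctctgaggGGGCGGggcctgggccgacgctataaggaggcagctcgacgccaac
*Rbl1*, chr2:157204535-157204784, minus strand: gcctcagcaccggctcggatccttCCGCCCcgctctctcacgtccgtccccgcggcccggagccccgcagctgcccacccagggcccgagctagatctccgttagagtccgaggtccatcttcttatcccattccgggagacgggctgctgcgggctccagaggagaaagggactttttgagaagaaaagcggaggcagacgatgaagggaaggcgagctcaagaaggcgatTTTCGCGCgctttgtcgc
The search covered the whole window of 250 bases before and 50 after each start. The E2F letters were found in *Rbl1* alone of the 8 genes, with the first base at position 233 of its window, and in 0.323% of the 32851 windows of all genes. The p53 cores were found only at the distal start of *Cdkn1a*, from position 203, and in 0.712% of all windows. GC boxes were present in all 8 genes, in 9 of their 11 windows, and in 35.7% of all windows. CCAAT boxes were present in *Cdkn1b*, *Cdkn2a*, *Cdkn2c* and *Cdkn2d*, in 4 of the 11 windows, and in 37.4% of all windows. A match of letters is a description of the sequence and does not show that a factor is bound there.

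Gene counts per library ran from 17769024 to 67695039, with a further 13.8% to 25.6% of the listed reads on no gene and 7.41% to 9.60% not uniquely aligned. Levels are given as CPM, the counts of a gene per 1000000 gene counts of its library. Only for comparing genes with each other are they also divided by the kilobases of merged exon (RPKM). Supporting cell markers (6 genes, among them *Sox2*, *Prox1* and *Fgfr3*) summed to 2988 to 5577 CPM in the GFP+ libraries and to 373 to 534 in the GFP- libraries. All 6 were higher in both GFP+ libraries at P6 and 5 of 6 at P1, where *Slc1a3* ran the other way (157 in each GFP+ library against 379 and 312 CPM). The 8 hair cell markers also summed to more in GFP+ cells, with 703 and 808 CPM against 471 and 439 at P1 and 423 and 508 against 351 and 390 at P6, and 6 of the 8 were higher in both GFP+ libraries at each age, the others overlapping (*Slc17a8* and *Pvalb* at P1, *Slc17a8* and *Myo6* at P6). The 7 mesenchyme and cartilage markers ran the other way, from 5399 to 10459 in GFP+ and from 27914 to 51697 in GFP- libraries. Most of each GFP+ sum was *Col2a1*, with 5147 and 6521 CPM at P1 and 4656 and 7846 at P6. All 7 were lower in both GFP+ libraries at each age. P6 GFP+ replicate 2 stood apart from replicate 1: all 7 mesenchyme markers (10459 against 5399 CPM), all 4 endothelial (169 against 40.2), all 3 melanocyte (81.8 against 25.8) and all 3 osteoblast markers (128 against 34.9) were higher in it. Tests that use the P6 GFP+ libraries are therefore also given without it. In sorted bulk RNA, fewer cells of a type and less RNA per cell cannot be told apart.

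**Figure D1:**
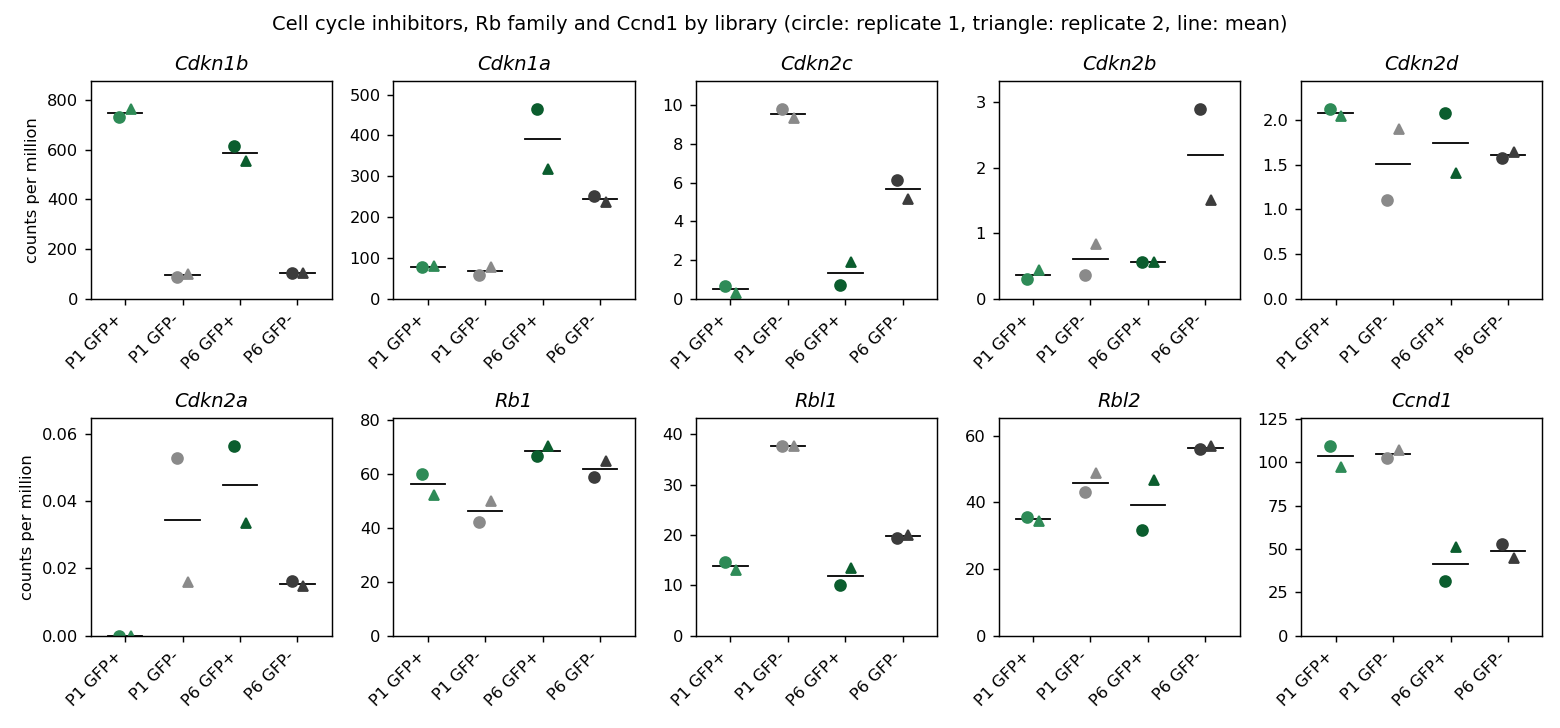
Levels in CPM of the 10 genes in each library, with the 2 replicates of each group as a circle and a triangle and their mean as a line, each gene on its own linear axis from 0. *Cdkn1b* separated GFP+ from GFP- cells at both ages, *Cdkn1a* separated P6 from P1, and both P6 libraries lay below both P1 libraries for *Ccnd1* in each fraction.

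On the length-corrected scale, the genes fell into an upper tier of *Cdkn1b*, *Cdkn1a* and *Ccnd1*, a middle tier of the retinoblastoma family and a lower tier of the INK4 genes. In P1 GFP+ cells *Cdkn1b* came first at 164 ± 4.49 RPKM (SD, n = 2), followed by *Cdkn1a* at 35.8 ± 0.561 and *Ccnd1* at 26.95 ± 2.19, and each of these steps was wider than the replicate range. *Rb1* (9.35 RPKM), *Rbl2* (5.02), *Rbl1* (2.30) and *Cdkn2d* (1.64) followed, while *Cdkn2b* and *Cdkn2c*, both below 0.4 RPKM in each library, overlapped. In the other 3 groups *Cdkn1a* had the highest mean, with 30.7 ± 6.43 RPKM in P1 GFP-, 176 ± 45.9 in P6 GFP+ and 110 ± 4.19 in P6 GFP- cells. Its P1 GFP- range overlapped that of *Ccnd1*, next at 27.4 ± 0.884 RPKM, whereas at P6 it was clear of *Cdkn1b*, next at 128 ± 9.32 in GFP+ and 22.9 ± 0.404 in GFP- cells. Further neighbours could not be ordered. *Rbl2* and *Rbl1* overlapped in P1 GFP- cells, *Rb1* and *Ccnd1* in P6 GFP+ cells, and *Cdkn2b* overlapped *Cdkn2c* in both P6 groups and *Cdkn2d* in P6 GFP- cells.

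The 6 inhibitors were also set against each other within each library. Of their summed RPKM, *Cdkn1b* made up 81.1% and 81.4% in the P1 GFP+ libraries, 38.2% and 35.6% in P1 GFP-, 39.0% and 45.5% in P6 GFP+, and 16.3% and 16.9% in P6 GFP- libraries. *Cdkn1a* supplied most of the rest, from 17.6% at the lowest in P1 GFP+ to 79.9% at the highest in P6 GFP- cells. The INK4 genes together were a small part everywhere, and *Cdkn2c* reached its highest share, 7.25% and 5.47%, in P1 GFP- cells. The sum itself was 198 and 205 RPKM in P1 GFP+, 50.1 and 63.3 in P1 GFP-, 346 and 268 in P6 GFP+, and 142 and 134 in P6 GFP- libraries, so the lowest total of the 6 was in P1 GFP- cells. These shares leave out *Cdkn1c*, the remaining Cip/Kip gene, which measured 47.5 and 57.8 RPKM in P1 GFP+, 89.6 and 113 in P1 GFP-, 16.9 and 37.2 in P6 GFP+, and 127 and 112 in P6 GFP- libraries. With *Cdkn1c* in the sum, *Cdkn1b* made up 65.4% and 63.5%, 13.7% and 12.7%, 37.2% and 40.0%, and 8.62% and 9.18% in the same order. Set against the cyclin within each library, *Cdkn1b* was 5.64 and 6.58 times the RPKM of *Ccnd1* in P1 GFP+ cells, 0.717 and 0.805 times in P1 GFP-, 16.5 and 9.09 times in P6 GFP+, and 1.67 and 1.94 times in P6 GFP- cells. Only in P1 GFP- cells did *Ccnd1* exceed *Cdkn1b*. These shares and ratios have no test.

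**Figure D2:**
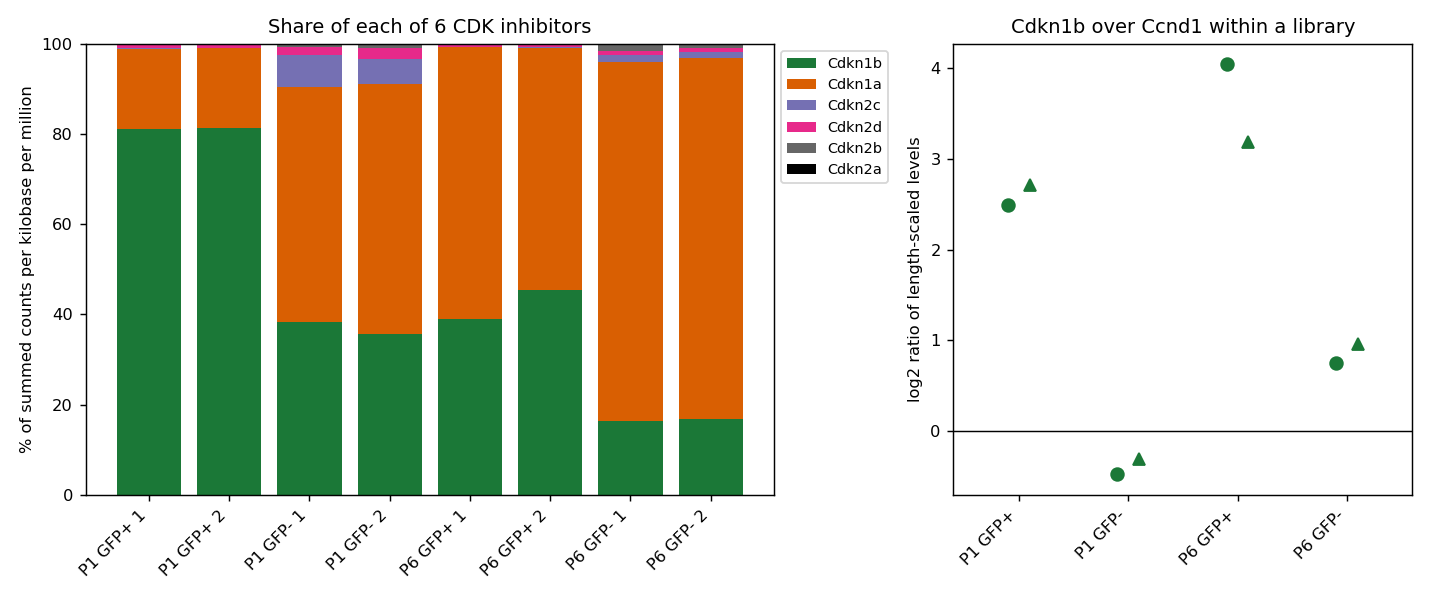
Left, the share of each of 6 CDK inhibitors in their summed RPKM in each library, in percent from 0 to 100, and right, the log2 ratio of *Cdkn1b* to *Ccnd1* RPKM within each library (circle, replicate 1, and triangle, replicate 2). *Cdkn1b* fills 81.1% and 81.4% of the bar in P1 GFP+ cells and 16.3% and 16.9% in P6 GFP- cells, and the ratio lies below 0 only in the P1 GFP- libraries.

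At P1, GFP+ and GFP- cells were compared to ask which cell cycle genes mark supporting cells. Of the 9 genes that passed the filter on low counts, 3 differed (edgeR quasi-likelihood test, p and p-adj below 0.01), a share close to the 37.3% of all genes tested. In GFP+ cells 1 was higher, as were 16.6% of all genes, and 2 were lower, as were 20.7%, and 2 of the 3 also passed the study's criterion of a fold change above 4, as did 17.8% of all genes. *Cdkn1b* (p27, ENSMUSG00000003031, chromosome 6, 134870419-134875531, plus strand) measured 732 and 761 CPM in GFP+ and 87.2 and 102 CPM in GFP- cells. Both GFP+ libraries were far above both GFP- libraries, with a fitted difference of 8.46-fold (log2 3.08, SE 0.12, p-adj = 1.81e-05). *Cdkn1a* (p21, ENSMUSG00000023067, chromosome 17, 29227924-29237667, plus strand), the inhibitor induced by p53, measured 78.7 and 80.5 CPM in GFP+ and 58.1 and 78.3 CPM in GFP- cells. The upper GFP- library almost reached the GFP+ libraries, and the difference did not pass (log2 0.33, 95% interval -0.03 to 0.68, p-adj = 0.108). The log2 difference was 0.55 without that library, P1 GFP- replicate 2, and 0.10 without P1 GFP- replicate 1.

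The INK4 genes were scarce in P1 cells, and *Cdkn2c* was the exception in GFP- cells. *Cdkn2c* (p18, ENSMUSG00000028551, chromosome 4, 109333481-109339794, minus strand) was read 31 and 8 times in the GFP+ libraries, or 0.676 and 0.321 CPM, against 9.76 and 9.30 CPM in GFP- cells. It was 16.6-fold lower in GFP+ cells (log2 -4.05, SE 0.35, p-adj = 0.000244), the widest gap of the 9 genes in any of the comparisons. *Cdkn2d* (p19, ENSMUSG00000066860, chromosome 9, 21092907-21095653, minus strand) stood at 2.12 and 2.05 CPM in GFP+ and 1.11 and 1.90 in GFP- cells, and *Cdkn2b* (p15, ENSMUSG00000073802, chromosome 4, 88952198-88956941, minus strand) at 0.305 and 0.442 against 0.370 and 0.840. Neither passed (p-adj = 0.211 and 0.329), their intervals of -0.27 to 1.39 and -1.97 to 0.63 on the log2 scale allow differences of either sign, and without P1 GFP- replicate 2 the sign of *Cdkn2b* turned (log2 0.056). *Cdkn2a* (ENSMUSG00000044303, chromosome 4, 88920377-88940557, minus strand), whose locus encodes p16 and, in another reading frame, p19Arf, gave 7 counts in all among 348730267 and was too low to test. It had 0 counts of 70721167 in P1 GFP+ cells, which allows up to 0.0424 CPM, and 3, 2 and 2 counts in P1 GFP-, P6 GFP+ and P6 GFP- cells. Counts per gene cannot separate its 2 products, and intervals and limits cover counting error only.

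In the retinoblastoma family, *Rbl1* alone separated the P1 fractions past the threshold. *Rbl1* (p107, ENSMUSG00000027641, chromosome 2, 156971629-157030270, minus strand), which is itself an E2F target and is made mostly in cycling cells, measured 14.6 and 13.0 CPM in GFP+ against 37.6 in each GFP- library. It was 2.53-fold lower in GFP+ cells (log2 -1.34, SE 0.12, p-adj = 0.000340), and the replicates were well apart. *Rb1* (ENSMUSG00000022105, chromosome 14, 73583480-73725629, minus strand) measured 60.1 and 52.3 CPM in GFP+ and 42.4 and 49.9 in GFP- cells (log2 0.39, p-adj = 0.0436). *Rbl2* (p130, ENSMUSG00000031666, chromosome 8, 93593956-93647743, plus strand), the member most used in resting cells, measured 35.5 and 34.4 against 43.2 and 48.7 CPM (log2 -0.29, p-adj = 0.0575). Both had replicates that did not overlap, as 7 of the 9 genes did and 79.3% of all genes tested, and neither passed. With no filter on low counts *Rb1* passed (p-adj = 0.00677), when 4 of the 9 genes and 9233 of all genes did, against 6972 of all genes with the filter. When scaled by library totals its p-adj was 0.0965. Over the settings tried, the log2 difference ran from 0.26 to 0.52 for *Rb1* and from -0.40 to -0.21 for *Rbl2*.

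*Ccnd1* (cyclin D1, ENSMUSG00000070348, chromosome 7, 152115836-152125774, minus strand) did not separate the P1 fractions. It measured 109 and 97.4 CPM in GFP+ and 103 and 107 CPM in GFP- cells, so the groups overlapped, and its log2 difference was 0.09 (95% interval -0.17 to 0.34, p-adj = 0.518), with a sign that turned when scaled by library totals (-0.021) or without P1 GFP+ replicate 1 (-0.023). Of the other D-type cyclins, *Ccnd2* differed and *Ccnd3* did not pass. *Ccnd2* was 26.9-fold lower in GFP+ cells (log2 -4.75, SE 0.14, p-adj = 1.09e-05), with 2.66 and 3.37 against 90.3 and 81.9 CPM, and *Ccnd3* had a log2 difference of 0.00 (p-adj = 1.00). On the RPKM scale *Ccnd1* made up 43.7% and 38.4% of the 3 D-type cyclins in P1 GFP+ libraries and 32.9% and 32.7% in P1 GFP-, while *Ccnd2* made up 0.716% and 0.895% against 19.5% and 16.8%.

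At P6 the same question was asked of the older cells. *Cdkn1b* was the 1 gene of 9 that passed (12.9% of all genes tested did, 7.72% higher and 5.19% lower in GFP+ cells), and also the 1 gene past a fold change of 4 (7.98% of all genes). It measured 614 and 554 CPM in GFP+ and 106 and 103 in GFP- cells, 5.59-fold higher in GFP+ cells (log2 2.48, SE 0.19, p-adj = 0.00125). Both GFP+ libraries lay clear of both GFP- libraries. Without P6 GFP- replicate 1 or 2 the log2 difference was 2.56 or 2.45, and the call was lost. Calls over all genes also changed widely when 1 library was left out, so the loss is not particular to *Cdkn1b*. *Cdkn1a* measured 464 and 319 CPM in GFP+ and 251 and 238 in GFP- cells. The GFP+ libraries were the higher ones but stood far from each other, and the difference did not pass (log2 0.67, 95% interval 0.07 to 1.28, p-adj = 0.0847).

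The 3 genes of the INK4 family that could be tested were each below 3 CPM in every P6 GFP+ library. *Cdkn2c* measured 0.732 and 1.91 CPM in GFP+ and 6.14 and 5.17 in GFP- cells (log2 -2.06, SE 0.46, p-adj = 0.0215), and *Cdkn2b* 0.563 and 0.569 against 2.89 and 1.51 CPM (log2 -1.96, SE 0.48, p-adj = 0.0288). The fractions did not overlap for either gene, and both missed the threshold in this fit. *Cdkn2c* passed with DESeq2 (p-adj = 0.000273), when all 8 libraries were fitted together (0.00543) and with no filter (0.000274), and *Cdkn2b* with DESeq2 (0.00768) and with no filter (0.00200). More of all genes passed in these settings as well. *Cdkn2d* overlapped between the fractions, with 2.08 and 1.41 against 1.57 and 1.64 CPM (log2 0.10, p-adj = 0.859).

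Of the retinoblastoma family, *Rbl1* measured 10.1 and 13.5 CPM in P6 GFP+ and 19.5 and 19.9 in GFP- cells (log2 -0.74, SE 0.21, p-adj = 0.0416, and 0.00654 with all 8 libraries in the fit), *Rbl2* 31.6 and 46.7 against 56.0 and 56.9 (log2 -0.54, p-adj = 0.102), and *Rb1* 66.6 and 70.4 against 59.0 and 64.8 (log2 0.14, p-adj = 0.498). *Ccnd1* measured 31.4 and 51.4 CPM in GFP+ and 53.1 and 44.7 in GFP- cells, so that GFP+ replicate 1 lay below the GFP- range and replicate 2 within it (log2 -0.25, 95% interval -0.88 to 0.38, p-adj = 0.493). Replicates of 7 of the 9 genes did not overlap, against 73.4% of all genes tested. Of the 9 genes the P6 GFP+ replicates were farthest apart for *Cdkn2c*, where replicate 2 was above replicate 1 by 1.38 on the log2 scale, followed by *Ccnd1* (0.71), *Cdkn2d* (-0.57), *Rbl2* (0.56) and *Cdkn1a* (-0.54). For *Cdkn2c*, *Ccnd1*, *Rbl2* and *Cdkn1a* replicate 2 was the one nearer to the GFP- libraries, and for *Cdkn2d* it lay below them. The mesenchyme, melanocyte and osteoblast sums of replicate 2 also lay towards the GFP- libraries, while its endothelial sum (169 against 112 and 103 CPM) and its Schwann cell sum (1902 against 1014 and 1230) lay above them. The part of these markers in the values was not tested. Without P6 GFP+ replicate 2, *Cdkn1b* and *Cdkn1a* (log2 0.94) were higher and *Cdkn2c* (-2.93), *Cdkn2b* (-1.94), *Rbl1* (-0.95), *Rbl2* (-0.82) and *Ccnd1* (-0.62) lower in GFP+ cells. That fit kept 1 GFP+ library, which was assumed to vary like the others, so only effect sizes are given. Calls over all genes changed widely between fits that left out 1 library. Without P6 GFP+ replicate 1, *Ccnd1* turned to 0.094.

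**Figure D3:**
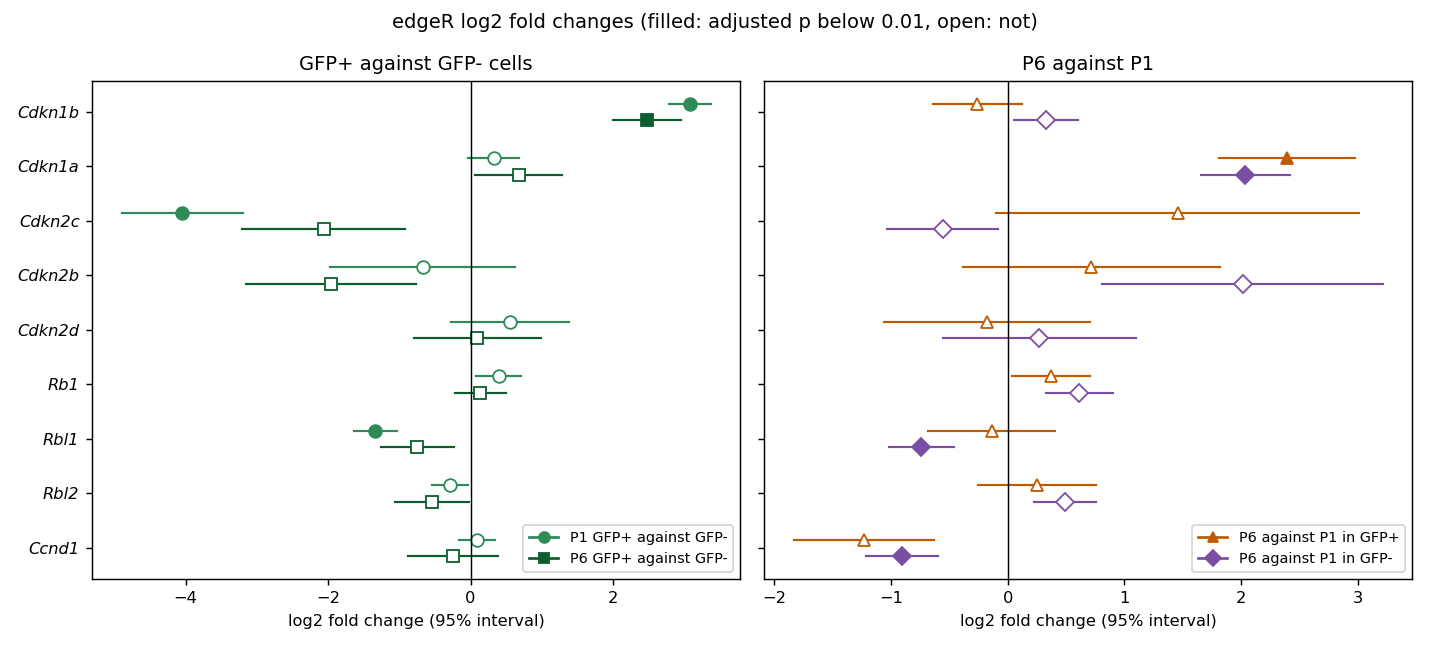
Log2 fold changes of the 9 tested genes with 95% intervals from edgeR, for GFP+ against GFP- cells at each age (left) and P6 against P1 in each fraction (right), filled where the adjusted p-value was below 0.01. *Cdkn1b* is filled at both ages on the left, at 3.08 and 2.48, and *Cdkn1a* in both fractions on the right, at 2.39 and 2.03.

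Between P1 and P6, GFP+ cells were compared with each other to ask how the cell cycle brake changes as supporting cells mature. *Cdkn1a* was the 1 gene of 9 that passed (4.81% of all genes tested did, 2.86% rising and 1.95% falling, and 2.56% with a fold change above 4). It rose from 78.7 and 80.5 CPM at P1 to 464 and 319 CPM at P6, 5.26-fold (log2 2.39, SE 0.23, p-adj = 0.00490). Every P6 library was above every P1 library, by more than the wide gap between the P6 replicates. Marker sums moved in the same libraries, and their part was not tested: from P1 to P6 the supporting cell markers went from 5443 and 5577 to 3510 and 2988 CPM, Schwann cell markers from 398 and 352 to 943 and 1902, melanocyte markers from 0.938 and 2.61 to 25.8 and 81.8, and osteoblast markers from 0.502 and 0.522 to 34.9 and 128. The call was lost without P1 GFP+ replicate 2 (log2 2.38) and held without either P6 library. *Cdkn1b* went from 732 and 761 to 614 and 554 CPM without passing (log2 -0.26, 95% interval -0.64 to 0.13, p-adj = 0.266).

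*Ccnd1* was the other gene whose GFP+ levels stood clear between the ages by a wide margin. It measured 109 and 97.4 CPM at P1 and 31.4 and 51.4 at P6 (log2 -1.23, SE 0.24), with p-adj = 0.0255 in this fit. Its adjusted p fell below 0.01 with no filter on low counts, with DESeq2 and with all 8 libraries in the fit, where more of all genes passed as well. Over the settings tried its adjusted p ranged up to 0.0647 and its log2 difference from -1.60 to -0.95. *Cdkn2c* measured 0.676 and 0.321 CPM at P1 and 0.732 and 1.91 at P6 (log2 1.46, p-adj = 0.148), the upper value being that of P6 GFP+ replicate 2. *Rb1* measured 60.1 and 52.3 against 66.6 and 70.4 CPM (log2 0.37, p-adj = 0.104), with log2 differences from 0.25 to 0.51 over the settings tried. *Cdkn2b*, *Cdkn2d*, *Rbl1* and *Rbl2* had log2 differences of 0.72, -0.18, -0.14 and 0.25 with p-adj from 0.278 to 0.738, and 6 of the 9 genes had replicates that did not overlap, against 70.3% of all genes. Fits that left out a P6 GFP+ library kept 1 library in that group, assumed to vary like the others. Calls over all genes changed widely between such fits.

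In GFP- cells, 3 of the 9 genes passed between P1 and P6 (7.38% of all genes tested, 5.04% rising and 2.34% falling), and *Cdkn1a* passed a fold change of 4 as well (1.85% of all genes). Marker sums moved here too, and their part was not tested. The dissection also differed between the ages, and its part was not tested either. Osteoblast markers went from 22.2 and 13.2 to 865 and 865 CPM, and macrophage markers from 131 and 96.6 to 273 and 241. Mesenchyme markers went from 29965 and 27914 to 51697 and 48720. The supporting cell, hair cell and neuron sums were lower in both P6 libraries. *Cdkn1a* rose from 58.1 and 78.3 to 251 and 238 CPM, 4.10-fold (log2 2.03, SE 0.16, p-adj = 0.000698), the P6 libraries lying far above the P1 libraries, and this call held under each setting tried, with log2 changes from 1.82 to 2.25 that fell short of 4-fold in some. *Ccnd1* fell from 103 and 107 to 53.1 and 44.7 CPM, 1.88-fold (log2 -0.91, SE 0.13, p-adj = 0.00494). *Rbl1* fell from 37.6 in each library to 19.5 and 19.9 CPM, 1.67-fold (log2 -0.74, SE 0.12, p-adj = 0.00714). The replicates of *Ccnd1* and *Rbl1* were clear of each other, but both calls were lost with all 8 libraries in the fit (p-adj = 0.0327 and 0.0264) and without P6 GFP- replicate 1 (0.0130 and 0.0637) or replicate 2 (0.0283 and 0.0601).

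Among the others, *Rb1* measured 42.4 and 49.9 CPM at P1 and 59.0 and 64.8 at P6 in GFP- cells (log2 0.61, p-adj = 0.0152), and *Rbl2* 43.2 and 48.7 against 56.0 and 56.9 (log2 0.49, p-adj = 0.0266). *Cdkn2b* measured 0.370 and 0.840 against 2.89 and 1.51 CPM (log2 2.01, SE 0.51, p-adj = 0.0361), a wide difference on few counts. All 3 were higher in both P6 libraries without passing here. All 3 passed with DESeq2 (p-adj = 0.000467, 0.00479 and 0.00341) and with no filter, settings in which more of all genes passed as well. *Cdkn2c* measured 9.76 and 9.30 against 6.14 and 5.17 CPM (log2 -0.56, p-adj = 0.0975), *Cdkn1b* 87.2 and 102 against 106 and 103 (log2 0.33, p-adj = 0.0962), and *Cdkn2d* overlapped (log2 0.27, p-adj = 0.621). Replicates of 8 of the 9 genes did not overlap, against 69.4% of all genes tested. Scaling by library totals moved the median of all genes by -0.19 in this comparison and by -0.10 at P1, and the sign of each of the 3 calls was the same on that scale.

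Whether the ratio of GFP+ to GFP- cells differed between the ages was asked with an interaction term in a fit of all 8 libraries. Of the 9 genes 0 passed in edgeR (1.93% of all genes did, 0.946% with a positive and 0.988% with a negative sign, and 1.26% past 4-fold) and 0 with DESeq2. The 3 with the lowest adjusted p in edgeR were *Cdkn1b* (log2 -0.61, 95% interval -1.09 to -0.13, p-adj = 0.137), *Cdkn2c* (1.99, interval 0.56 to 3.42, p-adj = 0.105) and *Rbl1* (0.58, interval 0.05 to 1.11, p-adj = 0.194). For each the gap between fractions was narrower at P6. Without P6 GFP+ replicate 2, 0 of the 9 passed as well, and the 3 interactions were -0.52 (p-adj = 0.109), 1.11 (0.252) and 0.37 (0.266). With no filter on low counts *Cdkn2c* passed (p-adj = 0.000679). For *Cdkn1a*, higher at P6 in both fractions, the interaction was 0.34 with an interval from -0.38 to 1.05 (p-adj = 0.593). For *Ccnd1* it was -0.35 (interval -1.04 to 0.34, p-adj = 0.561). Without P6 GFP+ replicate 2 these values were 0.60 (p-adj = 0.124) and -0.72 (p-adj = 0.0559). The intervals of *Cdkn1a* and *Ccnd1* span equal changes in both fractions as well as changes that differ. Those of *Cdkn1b*, *Cdkn2c* and *Rbl1* exclude 0, but they are not adjusted for the number of genes tested. The dissection changed together with age, so the interaction does not separate age from dissection.

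The partners of these genes were taken in 9 lists, each whole. At P1, all 7 E-, A- and B-type cyclins and CDK1/2 genes were lower in GFP+ cells, with a median log2 difference of -2.61 against 0.01 over all genes, led by the mitotic genes *Ccnb2* (-4.02), *Ccnb1* (-3.95) and *Cdk1* (-3.94). Of 12 S phase and proliferation genes, 10 were lower (median -2.03), among them *Mki67* (-4.22), *Rrm2* (-3.95) and *Top2a* (-3.71). Of 10 E2F and DP genes, 4 were lower and 2 higher (median 0.02), the lower ones led by *E2f8* (-4.21), *E2f7* (-4.09) and *E2f1* (-2.78), which with *Rbl1* are made in cycling cells. Of the D-type cyclins and their kinases, *Ccnd2* and *Cdk6* (-1.26), and of 7 MuvB core, *Mybl2* and *Foxm1* genes *Rbbp4* and *Foxm1* (-1.63), were lower and none higher. The third Cip/Kip gene *Cdkn1c* ran against *Cdkn1b*, with 91.8 and 112 CPM in GFP+ and 173 and 219 in GFP- cells (log2 -0.84, p-adj = 0.00376). Of 5 genes of the SCF complex that marks p27 for degradation, the adaptor *Skp1a* was higher (2.72, p-adj = 4.77e-05) and the p27-binding *Skp2* lower (-0.63, p-adj = 0.00423).

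The p53 list gave no common direction at P1, with 2 of 13 genes higher, 3 lower and a median of 0.14, the widest being *Plk2* (-1.64) and *Sesn1* (-1.25). Of 10 Polycomb genes, whose complexes repress the *Cdkn2a* locus, 3 were higher (median 0.37), among them *Cbx2* (1.21), and none lower. At P6, where fewer genes passed over the whole table as well, 9 of the 69 tested genes of the lists passed (13.0%, with 12.9% of all genes), and at P1 38 did (55.1%, with 37.3% of all genes). Of the S phase genes 5 of 12 were lower (median -1.21 against -0.02 over all genes), led by *Top2a* (-1.89) and *Mcm3* (-1.53). Of the 7 later cyclins and CDKs 0 passed in edgeR (median -1.40) and 4 were lower with DESeq2, which called more of all genes too (4797 against 2363). *Skp1a* (2.96) and *E2f5* (1.40) were higher, *Plk2* (-2.20) and *Sesn1* (-1.36) lower, and *Cdkn1c* measured 32.6 and 71.7 CPM in GFP+ and 245 and 217 in GFP- cells and just missed the threshold (-2.16, p-adj = 0.0104). Without P6 GFP+ replicate 2 the median was -1.30 for the S phase genes and -1.63 for the later cyclins and CDKs. Without replicate 1 these medians were -1.06 and -1.17.

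**Figure D4:**
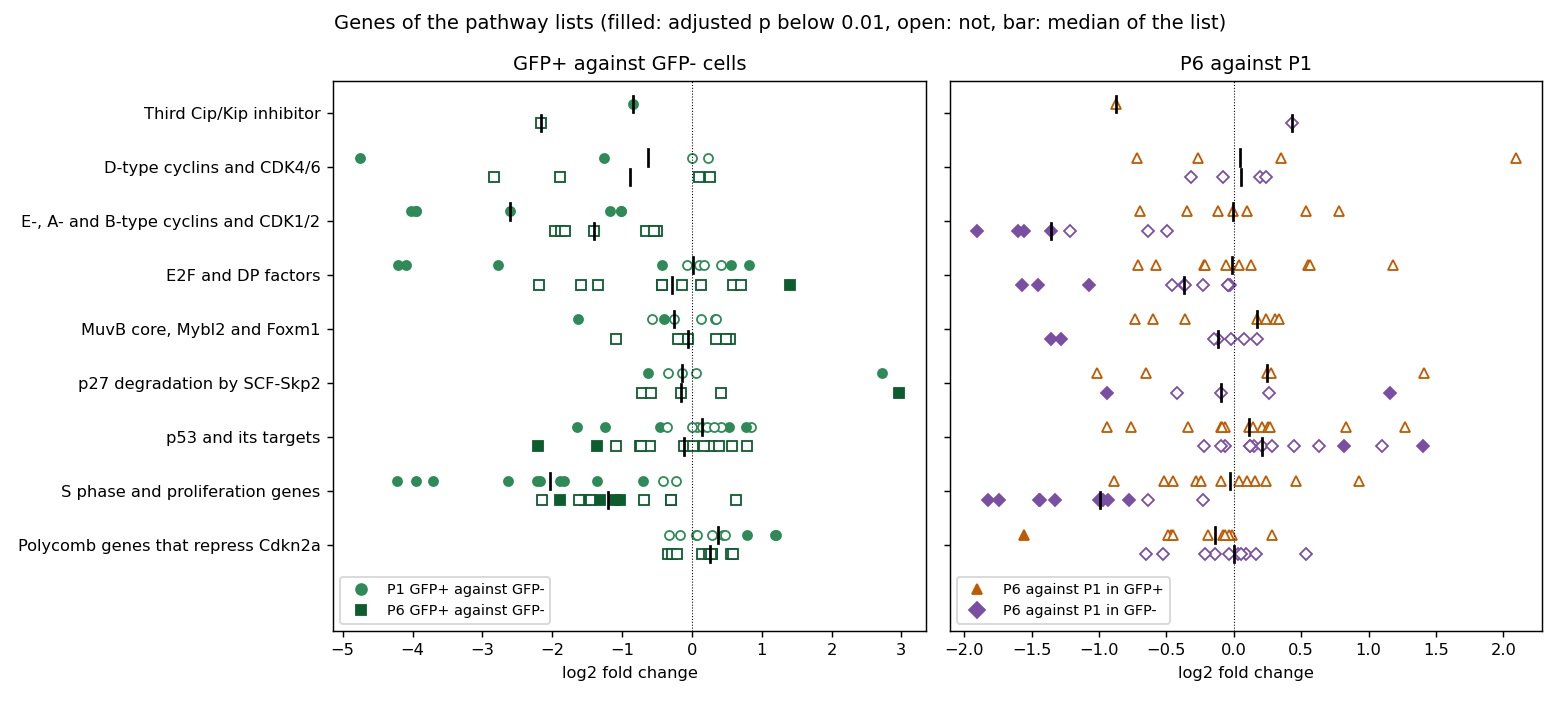
Log2 fold changes of each tested gene of the 9 lists of partner genes, for GFP+ against GFP- cells (left) and P6 against P1 (right), filled where the adjusted p-value was below 0.01, with a bar at each list's median. In GFP+ cells 1 gene of all lists, *Cbx2*, is filled between the ages, where 4.81% of all genes passed. In GFP- cells 10 of 12 S phase and 4 of 7 later cyclin and CDK genes are filled below 0, where 7.38% of all genes passed. The interaction of age and fraction passed for 0 of the 69 genes in edgeR.

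Between the ages in GFP- cells, 23 of the 69 genes of the lists passed (33.3%, with 7.38% of all genes). Here too the dissection differed between the ages, and its part was not tested. Of the S phase genes 10 of 12 fell (median -0.99 against -0.02 over all genes), led by *Mki67* (-1.83) and *Top2a* (-1.74), and 4 of 7 later cyclins and CDKs fell (median -1.35), led by *Ccnb1* (-1.91). *E2f7* (-1.57), *E2f8* (-1.45), *E2f1* (-1.07), *Mybl2* (-1.36), *Foxm1* (-1.28) and *Skp2* (-0.94) fell with them, and *Skp1a* (1.16) rose. Of the 13 genes of the p53 list, which holds *Trp53*, the activator of *Cdkn1a*, with its regulators and other targets, 2 rose, *Gadd45a* (1.40) and *Plk2* (0.82), and the median was 0.21. In GFP+ cells *Cbx2* fell (-1.56, p-adj = 0.00560) and was the 1 gene of 69 that passed in edgeR, while DESeq2 called 2 higher and 3 lower. Of all genes, edgeR called 828 (4.81%) and DESeq2 3011 in this comparison. Without P6 GFP+ replicate 2 or replicate 1, which left 1 library in that group, the median of the 69 genes was -0.09 or -0.06. The S phase median was -0.03 and the p53 median 0.11, against 0.00 over all genes, and without replicate 2 they were -0.39 and -0.029. The interaction, which tests gene by gene whether the change with age differed between the fractions, passed for 0 of the 69 genes in edgeR. With DESeq2 it passed for 8 with a positive and 1 with a negative sign, the positive ones being 4 later cyclins and CDKs, 3 S phase genes and 1 E2F gene. Over all genes DESeq2 called 1418 interactions against 372 in edgeR, so its calls were more numerous in the whole table as well. The fits that left out a P6 GFP+ library used edgeR, so they do not test the DESeq2 calls. In them the median interaction of the later cyclins and CDKs was 0.96 without replicate 2 and 1.36 without replicate 1, against 1.19 with both. That of the S phase genes was 0.71 without replicate 2 and 0.86 without replicate 1, against 0.82. *Mki67* shows how far the P6 GFP+ libraries differed, with 1.74 CPM in replicate 1 and 18.5 in replicate 2, against 8.95 and 9.40 at P1.

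The genes most like *Cdkn1b* over the 8 libraries, by Pearson correlation of log2(CPM + 1) among 12566 genes with a mean of at least 5 CPM, were *Fgfr3*, *Rps6ka1*, *Aqp11*, *Gm12602* and *Fam102a* (r from 0.997 to 0.998). Those most like *Cdkn1a* were *Fuca1*, *Bsg*, *Clint1*, *Tob2* and *Rasd1* (0.984 to 0.994), and those most like *Ccnd1* were *Drosha*, *Smarcc1*, *Prrg3*, *Bcl2l13* and *Btbd9* (0.982 to 0.994). The 8 points share their libraries and fall into 4 groups, so these values describe a shared pattern over groups. Some counts are uncertain by position: exons of *Rb1* share 488 bases with *Rcbtb2* and 408 with *Lpar6*, those of *Rbl2* 693 with *Aktip*, and those of *Ccnd1* 818 with *Oraov1*, all on the opposite strand, and the library kit does not mark strand.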

How the data were processed

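RNA-seq libraries of sorted GFP+ and GFP- cochlear cells were assigned to groups from their titles. The authors deposited raw counts for each Ensembl gene and made them by aligning paired-end reads to mm9 (NCBIM37) with TopHat (1.4.0 in the submitters' processing notes) and counting reads per gene with HTSeq. The counting mode and strand setting are not given in the sources used here. Reads listed as without a feature, ambiguous (2.05% to 2.53%), or not uniquely aligned were left out of library sizes and tests.

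Symbols, positions and merged exon lengths came from the GENCODE annotation of NCBIM37, which matched 34391 of 36536 genes, and promoter windows from RefSeq. Each comparison used its 4 libraries in edgeR 4.0.16 (R 4.3.3): filterByExpr (minimum count 10, minimum total 15), TMM, the quasi-likelihood test and Benjamini-Hochberg adjustment over all genes tested, with p and p-adj below 0.01 as the threshold. The interaction of age and fraction used all 8 libraries. The script was tested on simulated data. Tables were made in Python 3.11.15.

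The 10 genes, the 9 partner lists and the marker lists were chosen by name or function with earlier results of these data known. From each list the text names up to 4 genes past the threshold with a change above 2-fold, ranked by size, and beside these *Cdkn1c*, *Ccnd3*, *Rbbp4*, *Skp2* and *Plk2* below that size, which were chosen after their values were seen. A gene that this rule would name is not reported here. Replicates differed by more than counting noise (chi-square per degree of freedom from 16.3 to 62.7, where counting noise alone gives about 1), and at a library of 17769024 counts 1 count is worth 0.0563 CPM. Alternatives were DESeq2 1.42.0 (its test or its size factors), library totals, no filter, all 8 libraries, a replicate block and leaving out each library. A crossed block was added after seeing the data.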

Additional observations from a re-analysis of the deposited data

How the results depend on the processing

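Of 495 values of the 9 tested genes over the comparisons and alternatives, 434 kept their direction and side of the threshold, 42 came past it, 10 no longer passed it and 9 turned sign. The counts of genes past the threshold moved most. For GFP+ against GFP- cells at P6, 3 of the 9 genes passed with no filter (5309 of all genes), with DESeq2 (4797) and with all 8 libraries in the fit (5157), against 1 (2363). Between the ages in GFP+ cells, the same settings gave 2 in place of 1 (4090, 3011 and 2361 of all genes in place of 828), and in GFP- cells 6, 6 and 1 in place of 3 (3993, 3050 and 769 in place of 1397). For the interaction they gave 1 with no filter (2400 of all genes in place of 372) and 1418 of all genes with DESeq2. Leaving out 1 library at a time gave 3 to 5 of the 9 genes at P1 (3675 to 9798 of all genes), 0 to 7 at P6 (0 to 7765), 0 to 6 between the ages in GFP+ cells (137 to 7531), 1 to 6 in GFP- cells (249 to 3029) and 0 for the interaction (28 to 1407). A group left with 1 library was assumed to vary like the others.

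The signs that turned belonged to genes that did not pass, and the cause was not tested. At P1, *Ccnd1* was at -0.021 with library totals. Over fits that each left out 1 library, the log2 difference of *Cdkn2b* ran from -1.14 to 0.056 and that of *Ccnd1* from -0.023 to 0.20 at P1, *Cdkn2d* ran from -0.17 to 0.39 and *Ccnd1* from -0.62 to 0.094 at P6, *Cdkn2d* from -0.51 to 0.12, *Rbl1* from -0.34 to 0.026 and *Rbl2* from -0.026 to 0.48 between the ages in GFP+ cells, and *Cdkn2d* from -0.064 to 0.71 in GFP- cells.

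Scaling by library totals moved the split of all genes past the threshold from 1413 higher and 950 lower to 1282 and 514 at P6, from 954 and 443 to 564 and 575 between the ages in GFP- cells, and from 182 and 190 to 192 and 127 for the interaction. Replicates share numbers in the labels, but the differences between replicates correlated over 12566 genes by 0.057 at P1, 0.063 at P6, -0.194 in GFP+ and -0.337 in GFP- cells between the ages, so the numbers were not taken as pairs. With the replicate block, 3, 1, 1, 2 and 0 of the 9 genes passed (6363, 2837, 1079, 1040 and 151 of all genes), *Rbl1* between the ages in GFP- cells being the call lost (p-adj = 0.0206). With the crossed block, 2 passed in GFP+ (1254 of all genes) and 6 in GFP- cells (3063). Depth limits the INK4 genes, which had as few as 8 counts in a library (*Cdkn2c*), and *Cdkn2a*, with 7 counts in all.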
